A study of Homo sapiens with 12 samples.

Results

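The loci described here are the long intergenic RNAs that carry a LINC symbol, measured by RNA sequencing in K562, a chronic myeloid leukaemia cell line with erythroid features. They were selected on their names and on their level: every gene name of a locus had to start with LINC and digits, and its mean over the 12 libraries had to reach 1 FPKM (fragments normalised for the length of the locus and for library size). Where a symbol had several loci, the one with the highest mean was kept. Of 38272 loci in the table, 600 carried only LINC names. They held 265 symbols, of which 240 reached the minimum and 25 did not. Another 15 loci that join a LINC name with another name were left out.

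The study compared 4 groups of 3 libraries, labelled as biological replicates. The control group was K562 mock-transfected with the control siRNA and control GapmeR (SiCt+GapCt), and a GapmeR is a short antisense DNA-based strand through which RNase H cuts a chosen RNA. The SG group received Si623/Gap01, the siRNA and GapmeR against 1 long non-coding RNA, which the series title places by the name PPTG1. The TNF group was mock-transfected cells treated with 20 ng/mL tumour necrosis factor for 6 hours, and TNFSG was the targeted transfection with the same TNF treatment. All groups are 1 leukaemia line, and all carry a transfection, so no untransfected cells are compared. The labels do not say whether replicates came from separate cultures, and p-values measure the spread between these libraries.

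LINC is a systematic prefix for long non-coding RNAs transcribed from between protein-coding genes, given where no function or neighbouring gene supplies a name. These RNAs are made by RNA polymerase II, usually spliced and often present at low levels in few cell types. Some act in the nucleus on nearby genes, some bind proteins or microRNAs in the cytoplasm, and a few turned out to encode small proteins and were renamed.

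TNF signals through its receptors to the transcription factors NF-kB and AP-1. The promoters of the 3 loci that passed the test for TNF are therefore shown first, from RefSeq (GRCh38.p14), from 250 bases before to 50 bases after RefSeq's start of the RNA. That start is GENCODE's gene start for LINC01215, but lies 678 bases downstream of it for LINC00869 and 59684 bases downstream for LINC01138. Capitals mark letters that match 1 of 6 motifs searched on both strands. In LINC01215, chr3:108125571-108125870, + strand, they mark TGAGTCA, a match to the AP-1 type TGANTCA that starts at position -224 from the RNA start. In LINC00869, chr1:149606762-149607061, + strand, and LINC01138, chr1:148459871-148460170, - strand, they mark GC boxes (GGGCGG or its complement).

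LINC01215: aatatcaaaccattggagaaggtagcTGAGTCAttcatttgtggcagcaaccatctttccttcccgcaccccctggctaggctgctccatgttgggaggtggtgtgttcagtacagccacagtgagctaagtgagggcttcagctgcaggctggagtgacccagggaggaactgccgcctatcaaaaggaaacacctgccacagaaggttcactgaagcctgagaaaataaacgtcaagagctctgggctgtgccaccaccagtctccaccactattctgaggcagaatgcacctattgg

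LINC00869: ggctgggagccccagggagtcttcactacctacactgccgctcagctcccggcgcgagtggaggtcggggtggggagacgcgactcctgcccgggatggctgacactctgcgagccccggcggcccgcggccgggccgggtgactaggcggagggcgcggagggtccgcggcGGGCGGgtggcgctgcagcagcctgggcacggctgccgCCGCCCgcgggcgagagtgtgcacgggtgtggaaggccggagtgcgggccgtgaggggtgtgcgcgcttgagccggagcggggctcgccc

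LINC01138: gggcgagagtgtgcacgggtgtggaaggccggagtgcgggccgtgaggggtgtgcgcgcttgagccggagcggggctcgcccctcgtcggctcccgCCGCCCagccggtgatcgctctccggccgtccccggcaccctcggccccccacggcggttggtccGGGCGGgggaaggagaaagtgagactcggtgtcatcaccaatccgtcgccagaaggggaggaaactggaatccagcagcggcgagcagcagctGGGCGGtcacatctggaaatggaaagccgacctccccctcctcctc

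The LINC00869 and LINC01138 windows are alike in part. The last 82 bases of the LINC00869 window are the first 82 bases of the LINC01138 window, letter for letter, whereas neither shares a run of more than 9 bases with LINC01215. The LINC00869 window holds 2 GC boxes and 77.0% G and C letters, and the LINC01138 window holds 3 and 70.3%. In LINC01215 that share is 52.7%.

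RefSeq promoters were found for 157 of the 240 loci. An NF-kB type match (GGG, 2 bases of any kind, then TTTCC) stood in 1.3% of them and in 1.9% of all 35116 RefSeq promoters. AP-1 type matches stood in 9.6% against 7.7%, GATA type (GATAAG) in 3.8% against 6.4%, ETS type (CCGGAAG) in 11.5% against 10.3%, and the TATA box (TATAAA) in 15.9% against 11.5%. The GC box (GGGCGG) was found in 36.9% of LINC promoters and in 45.0% of all promoters. No NF-kB type match was found in the windows of the 3 loci shown. These are letter matches only.

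GENCODE release 29 matched 233 of the 240 symbols to 1 gene, 22 of them through an older name. It classes 177 as lincRNA, 15 as antisense, 14 as processed transcripts, 11 as transcribed unprocessed pseudogenes and 10 as protein-coding. A protein-coding gene overlapped 33 of them. The median of exonic length was 3000 bases in 5 exon blocks. The table gives no coordinates for its loci, so positions below are those of the annotated gene. Reads from near-identical copies and from overlapping genes on either strand cannot be told apart in these values.

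Series-wide checks gave the following. Relative depth, estimated from whole-read steps in the values, lay between 0.863 and 1.321, and total reads are unknown. The sum of 4 TNF response genes (NFKBIA, TNFAIP3, ICAM1 and CXCL8) lay between 36.6 and 43.2 FPKM without TNF and between 634 and 706 FPKM with it. The locus named MIR146A lay at 0.363 ± 0.205 FPKM (SD, n = 3) in control, 25.0 ± 3.48 with TNF, 0.0399 ± 0.0347 in SG and 5.44 ± 2.03 in TNFSG. It is taken here as the targeted region by reading PPTG1 in the series title as PTTG1, which is uncertain. PTTG1 itself differed by -0.08 ± 0.06 (log2, SE) in SG against control (limma adjusted p 0.751) and by -0.06 ± 0.06 in TNFSG against TNF (0.861). The K562 marker GATA1 was at 103 FPKM or more in every library. Of the markers of other cell types, the summed lymphoid list lay between 2.58 and 13.0 FPKM. The epithelial list lay between 54.3 and 74.4 FPKM, of which EPCAM held 48.9 to 64.5. Of the fibroblast list 3 of 4 markers were found. Their sum lay between 23.9 and 56.3 FPKM in control and 55.1 and 1180 with TNF, and between 21.3 and 45.3 in SG and 65.2 and 444 in TNFSG. The TNFSG libraries thus stood above the SG libraries without overlap, as for the LINC loci that rose with TNF. COL1A2 made the highest sums, at 1098 and 127 FPKM in TNF replicates 1 and 2 and 406 in TNFSG replicate 2, and lay between 0 and 6.39 elsewhere. PECAM1, the 1 endothelial marker found of 3, ran from 26.5 to 32.6 FPKM with TNF and from 41.2 to 51.4 in TNFSG, without overlap, and from 21.7 to 47.4 in control and 15.9 to 46.2 in SG. Whether these marker levels have a part in the LINC values was not tested.

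The level of LINC loci spread widely. Their median mean level was 6.16 FPKM, against 4.68 FPKM over the 27843 loci of any name with a mean of at least 1 FPKM. For 82 LINC loci the highest of several loci of the symbol was kept, which was not done for loci of any name. These medians are therefore of unlike sets. Of the 240, 88 reached 10 FPKM and 19 reached 100 FPKM, and 179 were above 0 in all 12 libraries. The 10 highest held 55.2% of all LINC FPKM and the 20 highest held 69.7%. Just inside the minimum stood LINC00528, LINC00482 and LINC01301, each with a mean of 1.12 FPKM. Just outside stood LINC00337 at 0.989, LINC01300 at 0.954 and LINC00202-2 at 0.940 FPKM.

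High FPKM did not always mean many reads. For 104 loci (43.3%), the values stepped in whole multiples of 1 read, so relative read numbers could be recovered (tolerance 0.03 of a step). A read split between several positions would make these numbers too high, and intervals are therefore not given. Of the 104 loci, 83 averaged under 10 reads per library. Over all 104 loci the median step was 0.871 FPKM per read, but in LINC00265 it was 90.7.

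LINC01320, a lincRNA on chromosome 2 (33706886 to 34738231, + strand), had the highest mean level, 1147 FPKM. Its libraries ran from 587 to 1542 FPKM, which came from 11 to 39 reads. LINC00276, also on chromosome 2, had a mean of 569.7 FPKM and 8 to 17 reads. LINC00265 had 255.5 FPKM and 0 to 12 reads. Of the 20 highest loci, 9 had recovered reads and 7 of them averaged under 10, so high FPKM rested there on a few reads.

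**Figure D1:**
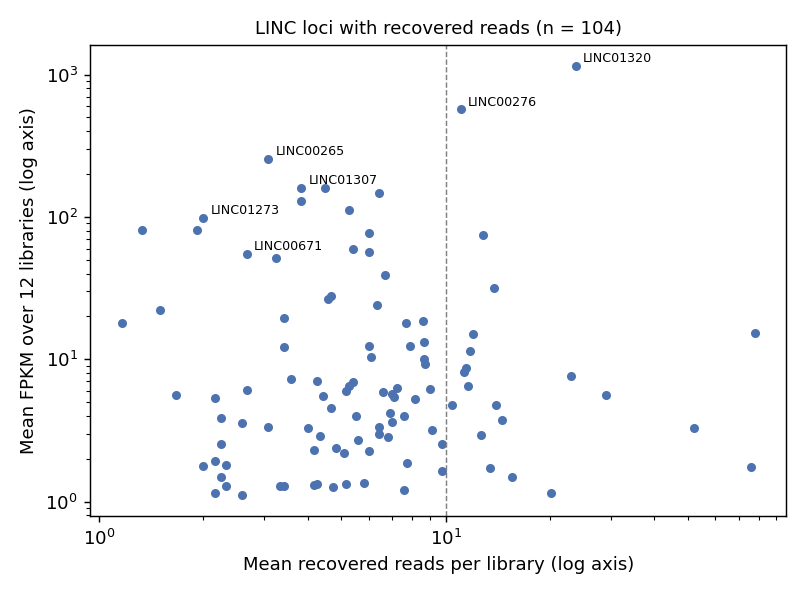
Mean FPKM over 12 libraries (y, log axis) against mean recovered reads per library (x, log axis) for the 104 LINC loci with recovered reads, 1 point per locus, with the dashed line at 10 reads. LINC00265 and LINC01307 stand above 100 FPKM with under 10 reads.

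The other loci among the 10 of highest mean were LINC00273 (895.8 FPKM), LINC00547 (650.6), LINC01297 (527.8), LINC00202-1 (228.7), LINC01494 (194.5), LINC00520 (185.0) and LINC01562 (162.9). LINC00273, on chromosome 16, lay at 872 ± 368 FPKM in control, 1300 ± 145 with TNF, 578 ± 188 in SG and 833 ± 324 in TNFSG (SD, n = 3). Its control libraries ran from 448 to 1111 FPKM and overlapped all other groups but TNF, whose lowest library stood at 1133. LINC00520, on chromosome 14, had means of 174 to 192 FPKM in the 4 groups.

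LINC01494 owed its place to a single library. It was listed at 0 in 10 libraries, at 2096 FPKM in SG replicate 3 and at 237.6 FPKM in TNFSG replicate 3. LINC01125, singled out after its values were seen, was listed at 606 FPKM in TNFSG replicate 3 and at 0 in the other 11 libraries. In 8 loci 1 library held over 50% of the summed level, and 11 loci would be under the minimum without their highest library.

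Replicate spread was larger at loci with few reads. The median within-group SD was 0.86 on the log2(FPKM + 1) scale for the 83 loci under 10 reads and 0.56 for 21 loci with 10 reads or more. It was 0.30 for the 136 loci whose reads could not be recovered, and 0.36 for loci of any name. These 136 include loci at 0 in most libraries, such as LINC01494 and LINC01125, for which no step could be sought. The largest spreads were those of LINC01494 (3.92), LINC00671 (3.28) and LINC01307 (3.24). LINC00671 ran from 0 to 9 reads and LINC01307 from 0 to 11 reads. LINC00998 (0.067) and LINC00657 (0.068) had the smallest spreads.

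The summed level of all 240 loci was 7957.0 ± 665.5 FPKM in control, 8085.5 ± 251.9 with TNF, 9071.2 ± 1046.7 in SG and 9795.7 ± 1221.9 in TNFSG (SD, n = 3). The control libraries ran from 7361.3 to 8675.3 and the SG libraries from 8098.8 to 10179.1, so these groups overlapped. As deposited, the TNFSG libraries, from 8657.8 to 11087.1, stood above the TNF libraries, from 7933.4 to 8376.3. For the 136 loci without recovered reads, however, TNFSG ran from 4429.1 to 5955.5 and TNF from 4514.6 to 4881.4, and these groups overlapped. Without the 10 loci of highest mean, TNFSG ran from 4541.8 to 5337.3 and TNF from 3185.0 to 3413.4 FPKM, with no overlap. With median-ratio scaling between libraries, values were divided by 0.976 in TNF replicate 2 and by 1.031 in TNFSG replicate 2. The sum over all 240 loci then stood higher in the former library, so TNF and TNFSG overlapped.

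Of 14 listed LINC genes with a described role, 11 were measured. In TNF against control 1 of the 11 rose, LINC01138, and none fell, beside 1.45% of all loci called there. No member passed in the other 4 tests. Their median log2 difference was 0.23 in TNF against control, 0.11 in TNFSG against SG, 0.15 in SG against control and 0.18 in TNFSG against TNF. Over all loci tested it was -0.02, -0.03, 0.08 and 0.08 in the same order.

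LINC00657, now NORAD, is an abundant cytoplasmic RNA that binds Pumilio proteins and guards genome stability. It lay at 89.6, 100.2 and 91.0 FPKM in control, 79.1, 89.9 and 84.4 with TNF, 88.6, 92.8 and 88.1 in SG, and 81.4, 84.4 and 84.3 in TNFSG. The control and TNF libraries overlapped, and the TNF difference of -0.15 ± 0.07 (log2, SE) missed the threshold (limma adjusted p 0.456). LINC00152, now CYTOR, is a cytoplasmic RNA studied for its part in cancer cell growth. Its 12 libraries ran from 79.2 to 120.8 FPKM, with a TNF difference of 0.23 ± 0.13 (adjusted p 0.619, limma).

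LINC00467 lay between 8.34 and 18 FPKM, and its lowest library was a control. Its difference was 0.50 ± 0.15 in SG against control (limma adjusted p 0.285) and 0.32 ± 0.15 in TNFSG against TNF. LINC00963 lay between 9.36 and 24.9 FPKM. LINC00339 lay between 9.45 and 18.1, LINC00662 between 6.62 and 12.6, LINC00665 between 3.11 and 6.56, and LINC00173 between 1.46 and 16.6 FPKM. LINC00632, host of the circular RNA antisense to CDR1, averaged 6.417 reads a library, and LINC00511 averaged 6.833. Levels of these 2 loci stayed under 6 FPKM in every library.

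Of 6 listed LINC symbols that are now known to encode small proteins, 4 were measured, 3 of them at 1 FPKM or more. None of the 4 passed any of the 5 tests. LINC00998, now SMIM30, encodes a small membrane protein and lay between 102.7 and 129.6 FPKM. Its group means of 113 (control), 107 (TNF), 123 (SG) and 116 FPKM (TNFSG) were among the most reproducible of all LINC loci. LINC00116, now MTLN, encodes the mitochondrial microprotein mitoregulin and lay between 17.6 and 30.3 FPKM. LINC00094, now BRD3OS, lay between 2.82 and 9.91 FPKM, with its highest value in SG replicate 3.

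The first comparison, TNF against control, measured the response to TNF in mock-transfected cells. Of the 237 LINC loci that were tested, 3 rose and none fell. LINC01215 rose about 3-fold, and LINC00869 and LINC01138 about 2-fold. The filter asked for at least 1 FPKM in at least 3 libraries, and 3 loci did not pass it. Changes are log2 differences of FPKM + 1, called at a limma adjusted p under 0.05 over all 32866 loci tested.

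That count is 1.27% of the LINC loci, beside 1.45% of all loci called in this comparison. A further 6 LINC loci had a positive and 10 a negative difference at an unadjusted p under 0.05, which makes 8.02% in all, against 11.2% of all loci. The median difference was -0.01 over the LINC loci and -0.02 over all loci. The share of LINC loci that passed was near the background in this comparison.

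LINC01215 is a lincRNA on chromosome 3 (GENCODE, 108125821 to 108138610, + strand), in 3 exon blocks, between CD47 and IFT57. It lay at 8.66, 9.61 and 7.70 FPKM in control and at 25.6, 29.01 and 25.7 FPKM in TNF. Each TNF library stood above each control library by a wide margin. The rise was 1.53 ± 0.12 (log2, SE; limma adjusted p 0.000123), and the mean level was 3.09 times that of control.

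The same locus was measured again in TNFSG against SG, which shares no library with the first comparison. It lay at 8.99, 11.8 and 9.08 FPKM in SG and at 31.2, 28.99 and 29.5 FPKM in TNFSG. The groups did not overlap, and the rise was 1.5 ± 0.12 (adjusted p 0.00015, limma). Both calls held in all 22 alternatives and left-out libraries, with changes between 1.44 and 1.62 and adjusted p values up to 0.0128.

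LINC01215 had 2 further loci of lower level in the table, which were not used to choose it. The first lay at 1.71 ± 0.988 FPKM in control and 4.80 ± 0.554 in TNF, and at 2.11 ± 0.901 in SG and 5.06 ± 0.481 in TNFSG (SD, n = 3). Its differences were 1.17 ± 0.30 (limma adjusted p 0.120) and 1.00 ± 0.30 (0.187) and did not pass. The second had higher means with TNF in both transfections, but its libraries overlapped in TNF against control.

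Its neighbours did not pass. CD47, the surface protein that signals to phagocytes, lay at 24.4 ± 4.84 FPKM in control and 28.1 ± 3.68 in TNF, a difference of 0.21 ± 0.16 (limma adjusted p 0.727). IFT57, a part of the intraflagellar transport machinery, lay at 4.26 ± 0.428 and 4.07 ± 0.338 FPKM, a difference of -0.05 ± 0.12 (limma adjusted p 0.933).

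LINC00869 is annotated as a transcribed unprocessed pseudogene on chromosome 1 (149606334 to 149679523, + strand). It lay at 7.87, 5.45 and 7.13 FPKM in control and at 15.4, 12.2 and 14.6 FPKM in TNF, with no overlap. The rise was 0.95 ± 0.17 (limma adjusted p 0.0271). In the targeted transfection it lay at 8.76, 7.97 and 8.41 FPKM in SG and at 20.5, 14.6 and 13.2 FPKM in TNFSG, again with no overlap, and rose by 0.84 ± 0.17 (limma adjusted p 0.0453). Of its 2 further loci, 1 had a higher mean in TNF than in control and 1 in TNFSG than in SG.

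Both calls were near the threshold. The first did not hold once 1 of 5 libraries was removed, namely control replicates 2 and 3, TNF replicates 1 and 3 and SG replicate 3 (limma adjusted p up to 0.105, log2 change 0.82 to 1.05), and the second without any single library but control replicate 2 (adjusted p up to 0.143, log2 change 0.67 to 0.97). Fits of just the compared pair of groups lost both as well (limma adjusted p 0.137 and 0.145), and the second was also lost with no filter (0.0506) and with no trend in the fit (0.0634).

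Its transcripts have close copies. They share a stretch of 3040 bases with FAM91A1 at 95.8% identity, and stretches with FAM91A3P at 99.0% and with FAM91A2P without a mismatch, and 22 other genes match in all. FAM91A1, the protein-coding copy, lay at 15.4 ± 1.36 FPKM in control and 15 ± 0.384 in TNF, a difference of -0.04 ± 0.10 (limma adjusted p 0.949). In SG it lay at 12.5 ± 1.48 and in TNFSG at 12.2 ± 0.924 FPKM. How the authors' counting divided reads between these copies is not given in the sources used here, so the LINC00869 values are uncertain in this respect.

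LINC01138, an RNA studied in liver cancer, is annotated on chromosome 1 (148290889 to 148519604, - strand) in 26 exon blocks and overlaps PPIAL4G on the same strand. It lay at 10.6, 8.89 and 11.6 FPKM in control and at 17.8, 21.7 and 23.7 FPKM in TNF, with no overlap. The rise was 0.96 ± 0.18 (limma adjusted p 0.0313). The call did not hold once 1 of 8 libraries was removed, namely each control library, TNF replicates 2 and 3, SG replicates 1 and 3 and TNFSG replicate 3 (adjusted p up to 0.131, log2 change 0.86 to 1.07, limma), nor in a fit of TNF and control alone (0.107).

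In the targeted transfection LINC01138 lay at 12.7, 10.8 and 13.2 FPKM in SG and at 27.8, 17.3 and 24.0 FPKM in TNFSG. These groups did not overlap, but the difference of 0.84 ± 0.18 missed the threshold (limma adjusted p 0.0540). It passed with the filter at 5 FPKM, with median-ratio scaling, with sums over its loci, without loci under 10 reads and without TNFSG replicate 2 (limma adjusted p 0.0466 to 0.0210). Its 11 further loci in the table were mostly under 1 FPKM. Their mean was above control in TNF for 9 of 11 and above SG in TNFSG for 11 of 11. Over all loci tested, 47.0% had a difference above 0 in TNF against control and 46.1% in TNFSG against SG. Transcripts of LINC01138 matched 18 other genes, so its values are uncertain in the way of LINC00869. LINC00869 is itself among these genes, with a stretch of 305 bases at 99.3% identity. The rises of LINC00869 and LINC01138 may therefore not be independent observations.

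The nearest measured neighbours of LINC01138 and LINC00869 were the histone loci HIST2H2BF and HIST2H2BD, the NBPF genes, GPR89B and PDE4DIP. From LINC01138, PDE4DIP lies 288577 bases away, GPR89B 297368 and NBPF9 534423. GPR89B lay at 17.8 ± 10.7 FPKM in control and 17.6 ± 18.3 with TNF and did not pass (limma adjusted p 0.915). PDE4DIP, which anchors phosphodiesterase 4D at the Golgi and centrosome, fell from 73.6 ± 6.00 to 43.4 ± 6.2 FPKM with TNF, a change of -0.76 ± 0.13 (limma adjusted p 0.0177). From SG to TNFSG its level went from 64.1 ± 5.09 to 43.9 ± 5.33 FPKM, a difference of -0.54 ± 0.13 that did not pass (limma adjusted p 0.0824). NBPF9 lay at 19.2 ± 5.73 and 22.6 ± 1.47 FPKM and did not pass (adjusted p 0.655, limma). PPIAL4G lay at 14.8 ± 0.759 and 13.8 ± 0.984 FPKM (adjusted p 0.950, limma).

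**Figure D2:**
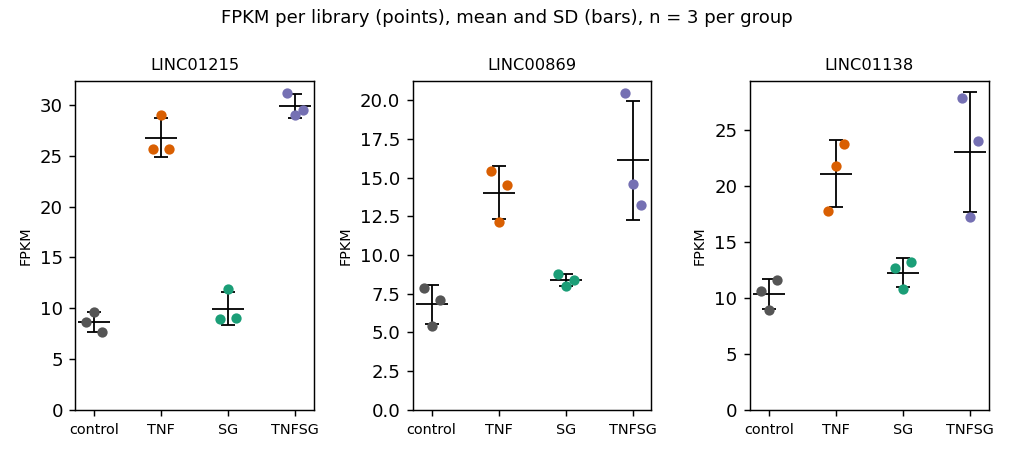
FPKM (y, from 0) of LINC01215, LINC00869 and LINC01138 in the 4 groups (x), with 1 point per library and black bars for the mean and SD of 3. In each panel the TNF libraries lie above the control libraries and the TNFSG libraries above the SG libraries.

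The next loci by p did not pass. LINC01003, on chromosome 7, lay at 13.1, 13.5 and 14.1 FPKM in control and 9.26, 10.97 and 10.1 in TNF, a difference of -0.39 ± 0.10 (limma adjusted p 0.119). LINC01273 was at 99.3, 53.1 and 126 FPKM in control and listed at 0 in all 3 TNF libraries. That amounts to 2, 1 and 2 reads against 0, so no fold is given, and its limma adjusted p was 0.0801. It was under the threshold with the filter at 5 FPKM (0.0488, limma adjusted p), in a fit of TNF and control alone (0.00421) and with a library left out (down to 0.000822).

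TNFSG against SG asked the same question of cells with the targeted transfection. Of 237 LINC loci, 2 rose and none fell, which is 0.844%, beside 1.64% of all loci. The 2 were LINC01215 and LINC00869. At an unadjusted p under 0.05 there were 22, of which 11 were higher and 11 lower, or 9.28% against 11.4% of all loci. The median difference was 0.04 over LINC loci and -0.03 over all loci.

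Behind these, LINC00261, an RNA of endoderm, lay at 4.30, 1.46 and 1.46 FPKM in SG and at 8.38, 8.44 and 13.4 FPKM in TNFSG. The groups did not overlap, and the difference was 1.77 ± 0.42 (limma adjusted p 0.0857, and 0.0456 without loci under 10 reads). In mock-transfected cells its libraries overlapped, at 5.54, 2.14 and 3.12 FPKM in control and 10.5, 4.61 and 4.32 in TNF. LINC01033 lay at 13.2, 15.2 and 16.5 FPKM in SG and at 21.8, 22.4 and 22.7 FPKM in TNFSG, a difference of 0.55 ± 0.14 (adjusted p 0.116, limma). Of its 14 further loci, 11 had a higher mean in TNF than in control and 9 in TNFSG than in SG. The shares of all loci tested with a difference above 0 were 47.0% and 46.1% in these comparisons.

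Set side by side, the TNF differences of the 2 transfections had the same sign in 142 of 237 LINC loci (59.9%) and in 63.1% of all loci tested. Among the 133 loci without recovered reads it was 90 (67.7%), and among the 83 under 10 reads it was 43 (51.8%). The correlation over the 237 loci was 0.06 (Pearson) and 0.16 (Spearman), against 0.19 and 0.24 over all loci tested. These points are loci of the same 12 libraries and are not independent. In 8 loci, all of them without recovered reads, both differences had an unadjusted p under 0.05. The matching share over all loci was not computed.

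**Figure D3:**
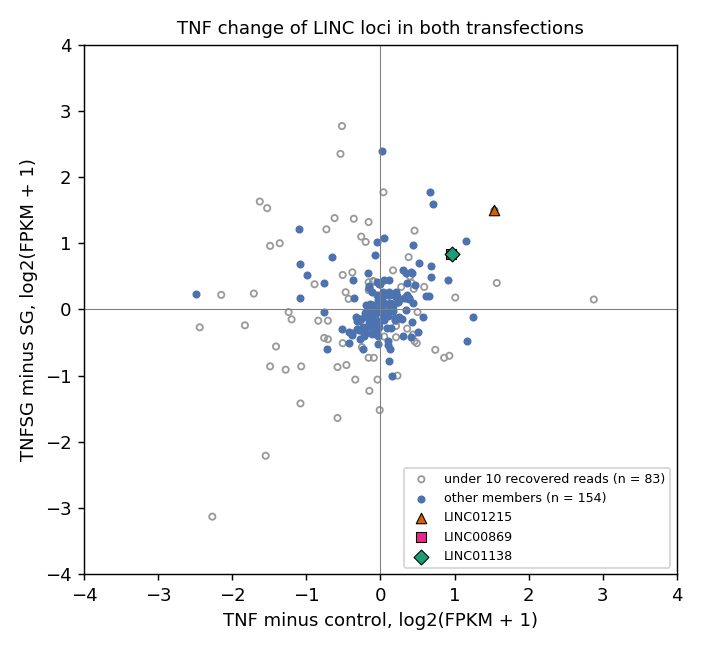
TNF minus control (x) against TNFSG minus SG (y), both as log2(FPKM + 1) differences, for 237 LINC loci, with open points for loci under 10 recovered reads; 2 loci lie outside the plotted range of -4 to 4. LINC01215 stands at 1.53 and 1.5, while the open points scatter on both sides of 0.

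With the 2 TNF comparisons averaged in the same fit, a contrast chosen after seeing the data, 7 LINC loci passed (2.95%, beside 4.38% of all loci). LINC01215, LINC00869, LINC01138 and LINC01033 rose, and LINC01003, LINC01128 and LINC01029 fell. LINC01033 rose by 0.49 ± 0.10 (limma adjusted p 0.0247). LINC01003 changed by -0.37 ± 0.07 (limma adjusted p 0.0166) and lay at 12.7, 14.7 and 14.6 FPKM in SG and 10.2, 9.92 and 12.1 in TNFSG. Its groups did not overlap in either transfection.

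LINC01128 lay at 9.82, 10.3 and 9.53 FPKM in control, 6.83, 6.66 and 7.74 with TNF, 7.90, 10.8 and 10.9 in SG, and 7.19, 7.38 and 8.08 in TNFSG. Its mean change was -0.38 ± 0.09 (limma adjusted p 0.0386), and SG replicate 1 lay within the range of TNFSG. LINC01029, on chromosome 18, changed by -0.39 ± 0.09 (limma adjusted p 0.0460), from group means of 45.0 to 34.5 FPKM and of 53.9 to 40.8 FPKM. Its 2 further loci also had lower means with TNF in both transfections.

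Of these 7 calls, those of LINC01215, LINC00869, LINC01138 and LINC01003 held in all 21 alternatives. The LINC01033 call did not hold once control replicate 2, SG replicate 1 or 2, or any TNFSG library was removed (limma adjusted p up to 0.0642). The LINC01128 call was lost without any single library but SG replicate 1 (adjusted p up to 0.0986, limma), and the LINC01029 call without any but control replicate 1 and TNF replicate 2 (up to 0.111). With no trend in the fit the LINC01128 and LINC01029 calls were lost too (limma adjusted p 0.0578 and 0.0855), and that of LINC01029 also with no filter (0.0523) and with median-ratio scaling (0.0609).

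SG against control measured the targeted transfection without TNF. No LINC locus passed (0.0%, smallest limma adjusted p 0.144), beside 0.17% of all loci. At an unadjusted p under 0.05 there were 22 LINC loci, all of them higher in SG. This is 9.28%, against 6.82% of all loci that were higher and 3.04% that were lower at that level. The median difference was 0.19 over LINC loci and 0.08 over all loci, and 68.4% of LINC loci were above 0, against 61.2% of all loci. With median-ratio scaling between libraries the medians were 0.12 and 0.02.

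TNFSG against TNF measured the targeted transfection under TNF. Again no LINC locus passed (smallest limma adjusted p 0.132), beside 0.128% of all loci. That smallest p was of LINC01273, at a mean of 242 FPKM in TNFSG and 0 in TNF. This locus averaged 2 reads a library, and its limma adjusted p went down to 0.00673 with a library left out. At an unadjusted p under 0.05, 24 LINC loci were higher and 1 was lower in TNFSG. The higher ones are 10.1% of LINC loci, against 6.34% of all loci. The median difference was 0.23 over LINC loci and 0.08 over all loci, or 0.18 and 0.03 with median-ratio scaling. Of the 237 loci, 177 (74.7%) were above 0, against 61.1% of all loci.

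LINC01021, now PURPL, is an RNA first described as a p53 target that lowers p53 levels, and lies on chromosome 5 (27472292 to 27496401, + strand). It lay at 14.8, 13.5 and 16.5 FPKM in control and 22.4, 21.6 and 22.7 in SG. It lay at 10.6, 11.96 and 12.9 FPKM in TNF and 15.6, 17.97 and 20.0 in TNFSG. SG libraries were above control and TNFSG libraries above TNF without overlap. The differences were 0.54 ± 0.11 (limma adjusted p 0.144) and 0.56 ± 0.11 (0.133).

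Its TNF libraries also stood below control, and its TNFSG libraries below SG, without overlap, by -0.32 ± 0.11 and -0.30 ± 0.11 (limma adjusted p 0.277 and 0.303). The second locus of the symbol, which was not used to choose it, lay at 3.64 ± 0.538 FPKM in control and 5.18 ± 1.05 in SG, and at 2.47 ± 0.666 in TNF and 3.74 ± 0.836 in TNFSG (SD, n = 3).

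LINC01278, on the X chromosome (63343227 to 63561071, - strand), lay at 6.64, 7.65 and 8.41 FPKM in control and 10.1, 9.69 and 9.62 in SG. Under TNF it lay at 6.38, 6.97 and 6.68 FPKM, and in TNFSG at 9.96, 9.08 and 9.67. The targeted transfection was higher without overlap in both arms, by 0.34 ± 0.09 (limma adjusted p 0.265) and 0.46 ± 0.09 (0.152). It overlaps SPIN4 on the same strand.

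LINC01287, on chromosome 7, lay at 4.42, 4.78 and 4.15 FPKM in control, 7.35, 6.08 and 8.41 in SG, 4.64, 4.36 and 5 in TNF, and 7.94, 6.22 and 6.61 in TNFSG. LINC01515, on chromosome 10 with 19 loci in the table, lay at 6.51, 5.87 and 6.67 FPKM in control, 10.2, 8.81 and 13.5 in SG, 5.81, 8.51 and 5.96 in TNF, and 13.4, 9.34 and 11.6 in TNFSG. In both loci the groups with the targeted transfection lay above their partners without overlap. Among the 18 further loci of LINC01515, the mean was higher in SG than in control for 13 and higher in TNFSG than in TNF for 12. The counts were 2 and 1 of the 2 further loci of LINC01287, and the 1 further locus of LINC01278 was higher in both. Over all loci tested, 61.2% had a difference above 0 in SG against control and 61.1% in TNFSG against TNF.

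**Figure D4:**
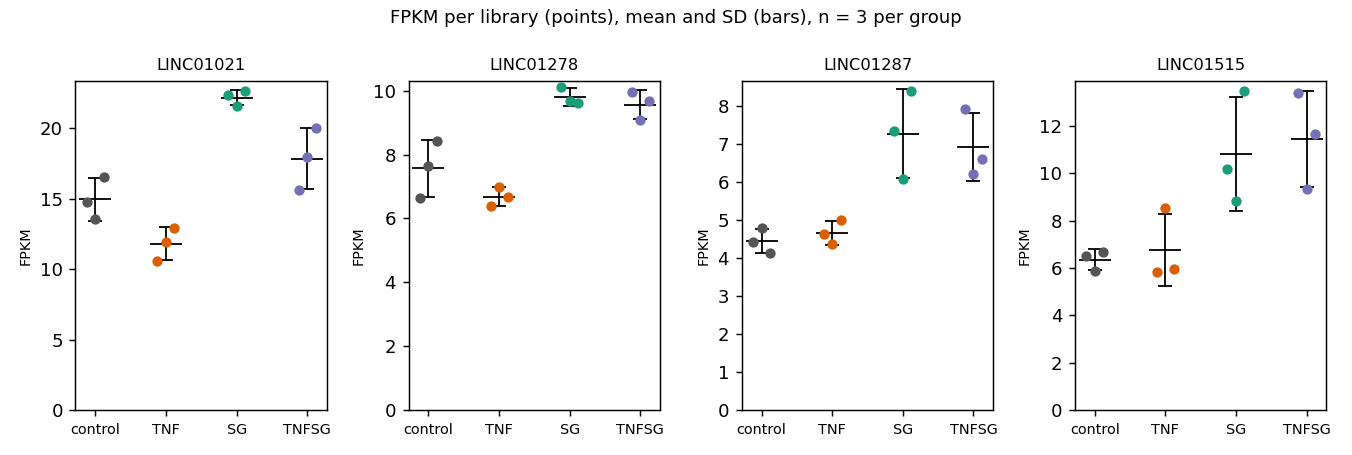
FPKM (y, from 0) of LINC01021, LINC01278, LINC01287 and LINC01515 in the 4 groups (x), with 1 point per library and black bars for the mean and SD of 3. SG libraries lie above control libraries and TNFSG libraries above TNF libraries in each panel.

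With the 2 comparisons averaged, a contrast chosen after seeing the data, these 4 loci passed and none fell (1.69%, beside 1.11% of all loci). The mean changes were 0.55 ± 0.08 for LINC01021 (limma adjusted p 0.0135), 0.40 ± 0.07 for LINC01278 (0.0279), 0.54 ± 0.09 for LINC01287 (0.0335) and 0.68 ± 0.13 for LINC01515 (0.0494). The LINC01021 call held in all 21 alternatives.

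The others did not hold as well. The LINC01278 call did not hold once control replicate 2, TNF replicate 2 or 3, or any SG or TNFSG library was removed (limma adjusted p up to 0.0850), the LINC01287 call without any single library but SG replicate 2 (up to 0.0851), and the LINC01515 call without any but TNF replicate 2 (up to 0.118). With no trend in the fit all 3 were lost (limma adjusted p 0.0539, 0.0505 and 0.0768). Sums over the loci of a symbol ended the LINC01287 and LINC01515 calls (0.0614 and 0.157, limma adjusted p), and the LINC01515 call was also lost with no filter (0.0574) and with median-ratio scaling (0.0645).

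LINC00923 lay at 2.12, 3.81 and 3.496 FPKM in control and 9.24, 6.48 and 8.97 in SG, a difference of 1.17 ± 0.31 that missed the threshold (limma adjusted p 0.240). LINC01347 was listed at 0 in all 3 control libraries and at 22.9, 8.84 and 1.84 FPKM in SG. These values stand for 10, 4 and 1 reads. It was also above 0 in every TNF and TNFSG library, with 1 to 9 reads. LINC01024, now MALINC1, was the lower one in TNFSG against TNF, at 2.66, 2.57 and 2.15 against 4.45, 3.63 and 5.02 FPKM (limma adjusted p 0.242).

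Side by side, the differences of SG against control and of TNFSG against TNF, which share no library, had the same sign in 156 of 237 LINC loci (65.8%) and in 63.1% of all loci tested. Among the 133 loci without recovered reads it was 101 (75.9%), and among the 83 under 10 reads it was 44 (53.0%). The correlation over the 237 loci was 0.30 (Pearson) and 0.18 (Spearman), against 0.10 and 0.20 over all loci tested. In 9 loci, all without recovered reads, both differences had an unadjusted p under 0.05. Here too the matching share over all loci was not computed.

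**Figure D5:**
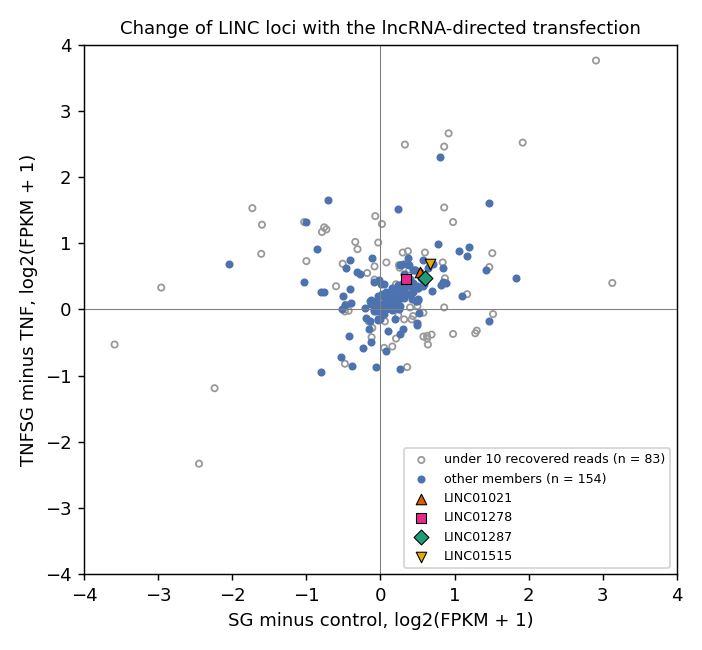
SG minus control (x) against TNFSG minus TNF (y), both as log2(FPKM + 1) differences, for 237 LINC loci, with open points for loci under 10 recovered reads; 4 loci lie outside the plotted range of -4 to 4. Of the loci, 162 lie right of 0 and 177 above it.

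The interaction of TNF and SG asks whether the TNF difference depended on the transfection. No LINC locus passed (smallest limma adjusted p 0.794), beside 0.00913% of all loci. At an unadjusted p under 0.05 there were 12, or 5.06% against 3.75% of all loci. For LINC01215 the difference between its rises of 1.53 and 1.5 was -0.02 ± 0.16 (log2, SE). LINC01273, at 2 reads a library on average, had the lowest p. LINC00939 lay at 98.9, 31.3 and 121 FPKM in control, 28.7, 32.1 and 39.7 with TNF, 64.3, 31.0 and 22.3 in SG, and 55.0, 136 and 79.4 in TNFSG. LINC01565 and LINC01376 averaged 6.667 and 6.000 reads.

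Several loci were listed at 0 in a whole group and above 0 in all of another. They were LINC01273, LINC01347, LINC00320, LINC01399, LINC01486, LINC01032, LINC00877, LINC00528 and LINC01583. LINC00320 was at 0 in TNF and had 2, 2 and 6 reads in SG. LINC01399 was at 0 in control and had 1, 3 and 1 reads in TNF. LINC00877 was at 0 in TNF and had 4, 4 and 17 reads in control. None of these passed in the 5 tests. In SG against control LINC01347 passed with a pseudocount of 0.1 (limma adjusted p 0.0434).

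Long non-coding RNAs with names of their own served for comparison. Of 50 listed, 36 were measured. In TNF against control 1 of the 36 fell and none rose, beside 1.45% of all loci called. The same counts were found in TNFSG against SG, beside 1.64% of all loci. None passed in the other tests. MIR17HG, the host of the miR-17 cluster, fell by 0.38 on the log2 scale with TNF (SE 0.07, limma adjusted p 0.0261). SNHG15, a snoRNA host gene, fell by 0.46 in TNFSG against SG (SE 0.09, adjusted p 0.0378, limma). Their median differences in SG against control and TNFSG against TNF were -0.08 and -0.06, where those of the LINC loci were 0.19 and 0.23. The difference between these lists was not tested.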

How the data were processed

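The file used here holds FPKM values computed and deposited by the authors, 1 column for each library. Per the labels' protocols, Trizol RNA was sequenced on an Illumina HiSeq in single reads of 50 bases. Per the submitters' processing notes, Bowtie2 2.2.9, TopHat2 2.0.14, Cufflinks and the build hg38 were used. Neither the annotation release nor a scaling between libraries is stated in the labels or notes.

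The loci, gene lists and tests were chosen with earlier results of these data known. The loci named are those called in any test, the 5 of lowest p in each, the 10 of highest mean, those at the minimum, listed genes, the 3 of largest replicate spread and those at 0 in a whole group, with the neighbours of called loci.

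Values were transformed as log2(FPKM + 1). Loci that reached 1 FPKM in 3 or more of 12 libraries were fitted with 1 mean per group over all 12 libraries (limma 3.58.1 in R 4.3.3, eBayes with a trend, two-sided). P values were adjusted by Benjamini-Hochberg over all 32866 loci, with a threshold of 0.05. The script was tested on simulated data. Reads were recovered where values stepped in whole reads (tolerance 0.03), and total depth is unknown. GENCODE release 29, RefSeq promoters, BLAST 2.17.0, Python 3.11.15, numpy 2.4.6, pandas 2.3.3 and matplotlib 3.10.9 were used. Alternatives were pseudocounts of 0.1 and 0.5, median-ratio scaling, a stricter filter at 5 FPKM or none, a replicate block, no trend, only the groups compared, sums over the loci of a symbol, and each library left out. Averaged contrasts and a fit without loci under 10 reads were added after seeing the data.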

Additional observations from a re-analysis of the deposited data

How the results depend on the processing

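The 37 changes of single LINC loci that were followed gave 788 values under the alternatives. Of these, 671 stayed on their side of the threshold and in their direction, 99 lost a call, 17 gained one and 1 turned direction. That 1 was LINC01376 in the interaction, at -0.23 with sums over the loci of a symbol. Changes that were not called and stayed so are among the 671, which is therefore not the number of calls that held. With a replicate block the number of loci called in TNFSG against SG went from 2 to 6, and for the averaged SG contrast from 4 to 9. Calls over all loci went from 449 that rose and 91 that fell to 638 and 205 in the former, and from 195 and 170 to 569 and 369 in the latter. In TNFSG against SG the block brought LINC01138, LINC00261 and LINC01033 under the threshold (limma adjusted p 0.0333, 0.0342 and 0.0186), and it ended the averaged SG call of LINC01515 (0.0544). In the other comparisons the block kept the count within 1.5 times. Deviations of libraries with the same number correlated at 0.007 to 0.138 over 18 pairs (mean 0.035), 1 of them over 0.1. Between libraries of different number and group they correlated at -0.093 to 0.043 over 36 pairs (mean -0.017). What libraries of the same number share is not stated in the labels.

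TNF against control gave 3 calls, 5 with a pseudocount of 0.1 and 1 to 3 with a library left out. Over all 32866 loci 387 rose and 91 fell, and 415 and 98 did with that pseudocount. With a library left out, 258 to 359 rose and 35 to 81 fell. TNFSG against SG gave 2, and 1 with no filter, with no trend or with only the groups compared, 4 with sums over the loci of a symbol and 4 without loci under 10 reads, and 1 to 2 with a library left out. Among all loci 449 rose and 91 fell, 444 and 85 with no filter, 403 and 51 with no trend, and 230 and 26 with only the groups compared. The numbers were 452 and 91 with sums, 540 and 181 of 20488 without loci under 10 reads, and 260 to 482 and 34 to 116 with a library left out. SG against control gave 0, and 1 with a pseudocount of 0.1, while over all loci 18 rose and 38 fell, and 22 and 41 with that pseudocount. TNFSG against TNF gave 0, and 0 to 1 with a library left out. There 19 of all loci rose and 23 fell, and 0 to 11 and 3 to 14 with a library left out. The averaged SG contrast gave 4, 7 with the filter at 5 FPKM, 1 with no trend, 2 with sums over loci, 8 without loci under 10 reads and 1 to 2 with a library left out. For it 195 of all loci rose and 170 fell, 387 and 314 of 15266 at 5 FPKM, and 81 and 77 with no trend. With sums 183 rose and 165 fell, without loci under 10 reads 500 and 325 of 20488, and with a library left out 58 to 189 and 74 to 174. The averaged TNF contrast gave 7, and 4 to 7 with a library left out. In it 932 of all loci rose and 509 fell, and 709 to 908 and 276 to 469 with a library left out. Summed FPKM moved by less than 1 SD under scaling. A mean of 3 libraries cannot move by 1 SD when 1 is left out, so leaving out libraries could not test this. Under scaling, however, the libraries of TNF and TNFSG overlapped in that sum. The cause of these shifts was not tested. Fewer loci entered the fits with a higher filter or without few-read loci. Depth limits at least 83 of the 240 loci, which averaged under 10 reads.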
